A study of Mus musculus with 11 samples.

Results

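The 7 genes described here encode subunits of NADPH oxidases: Nox4, Cybb, Cyba, Ncf1, Ncf4, Rac1 and Rac2. They were taken by symbol from a deposited count table of 13734 genes, all 7 were listed, and the counts of their transcripts were summed per symbol. The table came from RNA sequencing of isolated mouse glomeruli, the filtering tufts of the kidney. Vehicle-treated db/m mice gave 4 libraries, vehicle-treated db/db mice gave 4, and db/db mice given puerarin gave 3. The db/db mouse is homozygous for a loss-of-function allele of the leptin receptor gene and becomes obese and diabetic, and the db/m littermate carries a single copy of that allele. Puerarin, an isoflavone of kudzu root, was given by gavage at 20 mg per kg of body weight per day in 5% DMSO, while the 2 other groups received 5% DMSO alone. Treatment began at 10 weeks of age and lasted 6 weeks, so every group shared the age, the gavage and the solvent. The mice were male on the BKS background by the treatment protocol, but C57BL/6J by the strain entry. Whether mice were pooled within a library is not stated, so p-values measure only the spread between these libraries, which may be technical.

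NADPH oxidases pass electrons from NADPH across a membrane onto oxygen and so make superoxide. In the phagocyte enzyme, Cybb is the catalytic subunit and Cyba its membrane partner, and cytosolic proteins, among them those encoded by Ncf1 and Ncf4, join them with a Rac GTPase when the cell is activated. Nox4 also pairs with Cyba but needs none of the cytosolic proteins, gives mainly hydrogen peroxide, and is abundant in the kidney, above all in tubules. These enzymes are widely studied as sources of oxidants in diabetic kidney disease.

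Some properties of the libraries bear on every value below. Summed over transcripts, a library held 35369703 to 44244460 counts, and values are given as CPM, counts scaled to a common library size. Library titles took 2 forms, an S number in 5 libraries and a group tag with a number in 6, both present in each group. Sequencing took place at 2 sites, but the labels tie no library to either, so what the title form stands for is not known. It was a term in the fit. The libraries db/db puerarin 2 and 3 went against the label male: Xist, which coats the silenced X chromosome of females, stood at 528 and 819 CPM there and at 0.519 to 6.47 CPM in the other 9 libraries, and the Y-linked gene Ddx3y at 3.06 and 0.909 CPM against 50.3 to 85.2 CPM. Fold changes of the members and counts of the gene lists under puerarin are therefore given with and without these libraries, which leaves S144 as the only puerarin library; for the lists this was chosen after seeing the data. Podocyte markers marked the tissue as labelled: all 8 listed were detected in each library, summing to 10615 to 15803 CPM. Markers of other cells were present too. The 27 proximal tubule markers summed to 2636 to 13143 CPM in db/m, 1960 to 9503 in vehicle-treated db/db and 3464 to 4550 in puerarin-treated db/db libraries. The 24 myeloid markers summed to 220 to 522, 384 to 1901 and 343 to 514 CPM in the same order, and no marker of either list was at 0 in any library. In bulk RNA, fewer cells of a type and less RNA per cell cannot be told apart.

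The promoters of 3 genes are shown because the members fell into sets with different patterns across libraries, described below: Cybb and Ncf1 stand for the phagocyte set and Nox4 for the kidney oxidase. The RefSeq promoter table for build GRCm38.p6 (mm10) held 4 of the 7 members, among them these 3; Ncf4, Rac1 and Rac2 had no entry. Each stretch runs 5′ to 3′ on the gene's strand, from 250 bases before the gene start to 30 bases after it. Capitals mark 3 motifs searched on both strands: the PU box GAGGAA, which reads TTCCTC on the other strand and is a core that PU.1 and other ETS factors bind; the GC box GGGCGG, which reads CCGCCC on the other strand; and the CCAAT box, which reads ATTGG there. The motifs share no overlap in these stretches.
Cybb, chrX:9469295-9469574, minus strand: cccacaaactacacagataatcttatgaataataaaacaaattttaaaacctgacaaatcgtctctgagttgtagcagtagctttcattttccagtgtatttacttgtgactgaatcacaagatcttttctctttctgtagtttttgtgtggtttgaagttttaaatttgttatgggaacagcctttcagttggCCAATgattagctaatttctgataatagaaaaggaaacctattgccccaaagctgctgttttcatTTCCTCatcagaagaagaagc
Ncf1, chr5:134229596-134229875, minus strand: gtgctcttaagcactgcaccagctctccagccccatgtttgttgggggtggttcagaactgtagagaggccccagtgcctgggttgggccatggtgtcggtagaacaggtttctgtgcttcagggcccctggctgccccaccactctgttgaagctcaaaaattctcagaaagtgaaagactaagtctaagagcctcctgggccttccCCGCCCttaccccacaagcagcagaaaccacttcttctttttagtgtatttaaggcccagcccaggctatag
Nox4, chr7:87246399-87246678, plus strand: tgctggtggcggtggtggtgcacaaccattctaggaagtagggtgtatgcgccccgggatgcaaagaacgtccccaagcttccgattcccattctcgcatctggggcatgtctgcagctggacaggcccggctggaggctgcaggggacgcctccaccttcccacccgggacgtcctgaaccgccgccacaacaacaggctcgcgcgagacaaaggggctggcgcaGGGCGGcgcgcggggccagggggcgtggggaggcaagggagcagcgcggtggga
The Cybb stretch held a CCAAT box 56 bases before the gene start and the reverse PU box from base 10 after it, and was poor in G and C (34.3%). Neither the Ncf1 nor the Nox4 stretch held a PU box or a CCAAT box. Each had a single GC box, 42 and 24 bases before the start, and the Nox4 stretch was 67.9% G and C against 53.9% in Ncf1. Of 32851 RefSeq windows of the same 280 bases, 26.0% held a PU box, 34.7% a GC box and 36.1% a CCAAT box. The motifs were thus common, and a match describes these letters and is not a measured binding site.

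No member passed the test in any of the 3 comparisons. In edgeR's quasi-likelihood test with Benjamini-Hochberg adjustment over all genes, 0 of the 7 members passed an adjusted p of 0.05 between vehicle-treated db/db and db/m libraries, where 0.0437% of the 13734 genes passed. Puerarin against vehicle in db/db gave 0 of 7 members and 0% of all genes, and puerarin-treated db/db against db/m gave 0 of 7 and 0.182%. DESeq2 called 0 of 7 members in each comparison as well, where it called 290, 15 and 297 of the 13734 genes. At an unadjusted p under 0.05, edgeR had 0, 1 (Ncf4) and 0 members, where 10.3%, 4.21% and 10.3% of all genes lay. For no member did a pair of groups stand apart without overlap in CPM, as they did for 4.96%, 3.23% and 7.65% of all genes. All 7 were above 0 between vehicle-treated db/db and db/m, with a median log2 fold change of 0.71 against 0.02 over all genes, of which 53.5% were above 0. Under puerarin 6 of 7 were below 0 with a median of -0.82, against -0.02 over all genes, of which 44.7% were above 0. Without puerarin 2 and 3 it was again 6 of 7, with a median of -1.18. Both comparisons use the same 4 db/db vehicle libraries, so their directions are not separate evidence of each other. Nor are the members 7 separate observations: Cybb, Ncf1, Ncf4 and Rac2 moved together across libraries (r from 0.79 to 0.95). Without db/db vehicle 1, Rac1 and Rac2 lay below 0 between vehicle-treated db/db and db/m (-0.035 and -0.12). The other members then ran from 0.018 (Ncf1) to 1.0 (Nox4). Under puerarin Ncf1 and Rac2 were then above 0 (0.23 and 0.020), and Cybb was at -0.11.

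**Figure D1:**
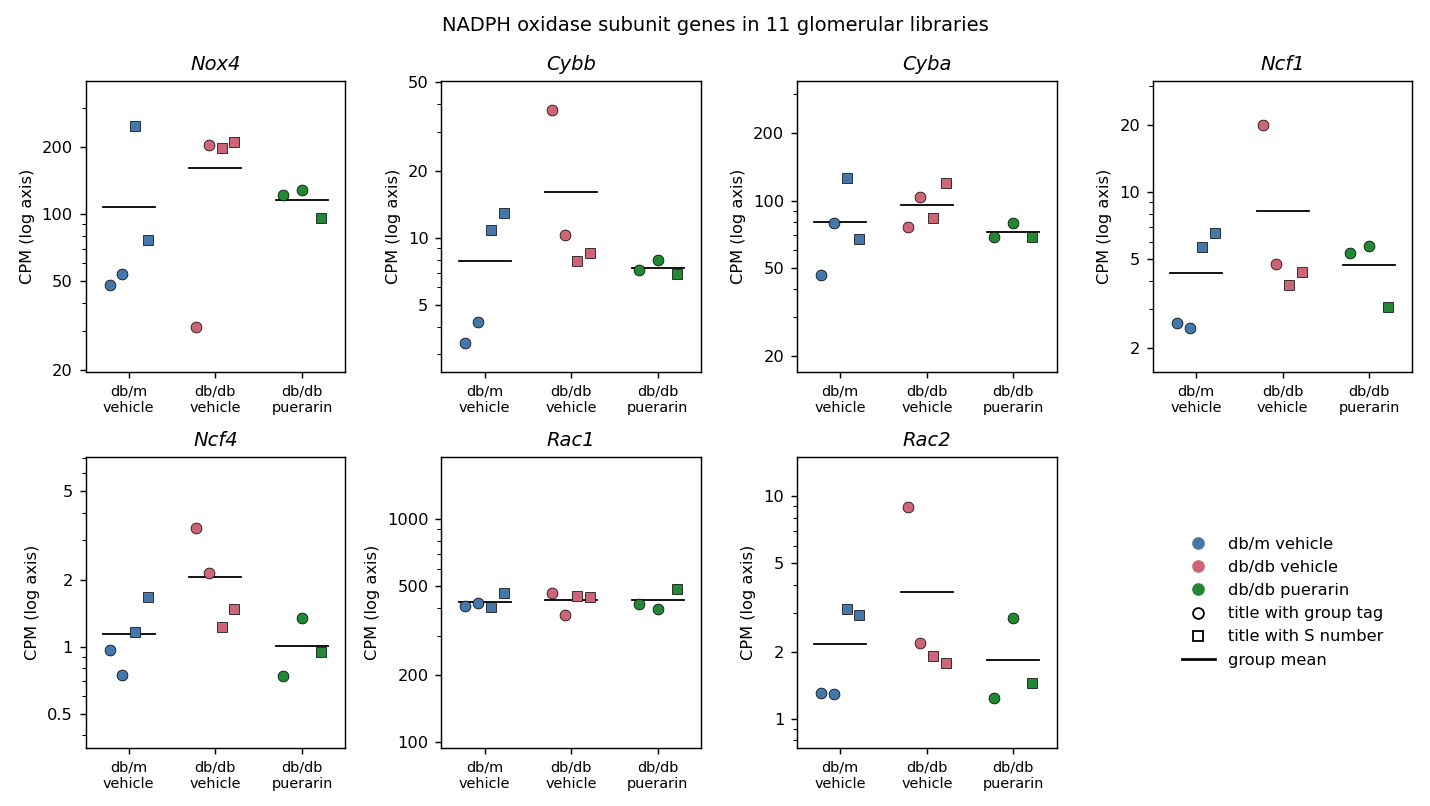
CPM of each member (vertical log axes, each spanning the same ratio) in each library, by group along the horizontal axis; circles are libraries titled with a group tag, squares those with an S number, and lines are group means. Rac1 lay between 371 and 483 CPM in all 11 libraries, whereas Nox4 ran from 31.0 to 249 CPM and Cybb, Ncf1, Ncf4 and Rac2 each peaked in the single library db/db vehicle 1.

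Compared per transcript length, since CPM of genes of different lengths are not comparable, the members covered a wide range of levels. Using the transcript with the highest count of each gene, Rac1 stood at 152.5 ± 12.0 CPM per kb (SD, n = 11), Cyba at 91.1 ± 25.5 and Nox4 at 18.4 ± 10.7. Cybb followed at 3.60 ± 3.11 CPM per kb, then Ncf4 at 1.58 ± 0.845, Ncf1 at 1.44 ± 1.19 and Rac2 at 1.39 ± 1.15. Rac1 exceeded Cyba, Cyba exceeded Nox4, and Cybb exceeded Ncf4 in 11 of 11 libraries, and Nox4 exceeded Cybb in 10 of 11. The lowest 3 could not be ordered: Ncf4 was above Ncf1 in 8 of 11 libraries, and Ncf1 above Rac2 in 4 of 11. The membrane partner Cyba was thus more abundant per length than either catalytic subunit.

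Nox4, the catalytic subunit of the kidney oxidase (chromosome 7, 87246649 to 87398708, plus strand), varied more between the libraries of each vehicle group than between the group means. In the db/m libraries it stood at 48.3, 54.1, 249 and 76.9 CPM (libraries 2, 3, S184 and S185). The vehicle-treated db/db libraries had 31.0, 204, 198 and 211 CPM (1, 3, S152 and S153), and the puerarin libraries 122, 128 and 95.9 CPM (2, 3 and S144). Both extremes of the whole series thus lay in the vehicle groups, the highest in db/m S184 and the lowest in db/db vehicle 1, and the puerarin libraries lay between the other db/db vehicle libraries and most db/m libraries. The group means were 107 ± 95.4 CPM in db/m (SD, n = 4), 161 ± 86.9 in vehicle-treated db/db (n = 4) and 115 ± 17.2 in puerarin-treated db/db (n = 3). The log2 fold change between vehicle-treated db/db and db/m was 0.71 (SE 0.563, 95% interval -0.54 to 1.96, edgeR adjusted p = 0.71). Puerarin against vehicle gave -0.19 (SE 0.623, -1.57 to 1.2, edgeR adjusted p = 0.992), and -1.31 without puerarin 2 and 3 (adjusted p = 0.812), which leaves only S144 in that group. The intervals allow a change of more than 2-fold in either direction under puerarin. These CPM count shared reads repeatedly: the 3 listed Nox4 transcripts had nearly equal totals, and their sum was 3.0 times the highest of them.

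Nox4 was set beside Lrp2 and Slc34a1, genes of the proximal tubule that encode the endocytic receptor megalin and the main phosphate transporter. Lrp2 stood at 44.7, 67.1, 233 and 82.1 CPM in db/m, at 39.0, 182, 94.9 and 124 in vehicle-treated db/db, and at 99.8, 137 and 69.0 in puerarin-treated db/db, in the library order given for Nox4. Slc34a1 stood at 315, 479, 1087 and 426 CPM, at 203, 1068, 551 and 641 CPM, and at 577, 625 and 311 CPM. Both genes were lowest in db/db vehicle 1 and highest in db/m S184, the libraries in which Nox4 was lowest and highest. Over the 11 libraries, log2 CPM of Nox4 followed Lrp2 (Pearson r = 0.906, permutation p = 0.00012, adjusted over 21 relations 0.00252; Spearman rho = 0.927, permutation p = 0.00016) and Slc34a1 (r = 0.867, permutation p = 0.00056, adjusted 0.00294; rho = 0.90, permutation p = 0.00036). Without db/db vehicle 1 and db/m S184, the libraries farthest from the median, r was 0.841 and 0.738 over 9 libraries. Within the 6 libraries titled with a group tag r was 0.976 and 0.956, and the 5 with an S number were too few. With group and title form removed, r was 0.942 and 0.981. All points share the normalization of their library, and a coordinated change of 2 genes' CPM across libraries says nothing about which cells made either RNA. Cyba followed the same genes less closely (r = 0.768 and 0.707, adjusted permutation p = 0.0184 and 0.0389).

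**Figure D2:**
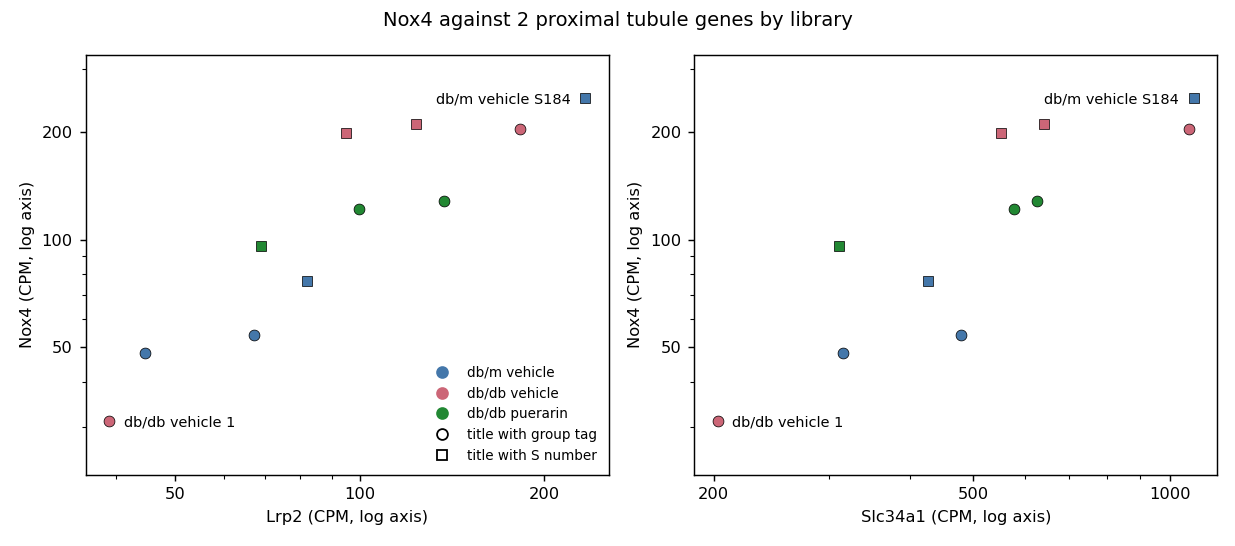
Nox4 against Lrp2 (left) and Slc34a1 (right), CPM on log axes, 1 point per library, coloured by group and shaped by title form. Nox4 rises with both genes from db/db vehicle 1 at the lower left (31.0 CPM) to db/m S184 at the upper right (249 CPM), and libraries of the 3 groups are interleaved along the way.

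Of all 13716 other genes with a mean of at least 1 CPM, ranked by r with Lrp2, Nox4 came at rank 168, and with Slc34a1 at 288. The genes whose log2 CPM was most like that of Nox4 included Gk (r = 0.979), Spp2, AI314278, Glyat and Rida (r = 0.9748), over 11 libraries. Gk encodes glycerol kinase and Glyat a glycine conjugating enzyme. Gk ran from 77.9 to 309 CPM and Glyat from 14.0 to 104 CPM. This ranking is a description of 11 libraries, with no test.

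Relative to Slc34a1, Nox4 was somewhat higher in both db/db groups, within the spread. The ratio of Nox4 to Slc34a1 per length was 4.19%, 3.09%, 6.28% and 4.95% in db/m, 4.19%, 5.25%, 9.85% and 9.05% in vehicle-treated db/db, and 5.78%, 5.62% and 8.46% in puerarin-treated db/db libraries. The S-number libraries had the higher ratios in every group. The means were 4.63% ± 1.34 (SD, n = 4), 7.08% ± 2.78 (n = 4) and 6.62% ± 1.59 (n = 3). In exact two-sided permutation tests of the log2 ratio, vehicle-treated db/db against db/m gave p = 0.20, puerarin against vehicle p = 0.943 and puerarin-treated db/db against db/m p = 0.171, where 3 against 4 libraries can reach 0.0286 at the least. Within title forms, the first difference was 0.76 on the log2 scale for S numbers and 0.38 for group tags. Without puerarin 2 and 3 the puerarin group holds only the ratio of 8.46%, which lay above every db/m library and below both db/db vehicle libraries with an S number, with no test. Relative to Lrp2 per length, the means were 134% ± 17.8, 197% ± 79.9 and 163% ± 31.6 in the same group order. Exact permutation gave p = 0.229, 0.657 and 0.286 in the same order of comparisons. The first difference was then 0.92 for S numbers and 0.018 for group tags, so it was hardly present in the latter.

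With the proximal tubule level (the mean log2 level of the 27 markers) as a further term in the edgeR fit, Nox4 was the only member to pass anywhere. Its log2 fold change between puerarin-treated db/db and db/m was then 0.94 (SE 0.195, 95% interval 0.51 to 1.37, adjusted p = 0.0325), where 2.64% of all genes passed. Between vehicle-treated db/db and db/m it was 0.51 (SE 0.179, adjusted p = 0.195, 1.75% of all genes passed), and between puerarin and vehicle 0.42 (SE 0.201, adjusted p = 0.712, 0% passed). The call was lost on leaving out db/m 3, db/m S184, db/m S185, db/db vehicle S153, puerarin 2 or puerarin 3 (adjusted p from 0.0545 to 0.116). Without both puerarin 2 and 3, which leaves only S144 in that group, the value was 0.52. The marker level did not always rank libraries as Lrp2 and Slc34a1 did. It was -0.24 and -0.26 in puerarin 2 and 3, below -0.033 in db/m S185, although both genes had higher CPM in puerarin 2 and 3 than in db/m S185. The part of this in the call was not tested.

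Cyba, the membrane subunit shared by both enzymes (chromosome 8, 122424771 to 122432940, minus strand), moved over a narrower range. Its level was 46.5, 79.3, 126 and 67.4 CPM in db/m, 76.4, 104, 83.2 and 120 CPM in vehicle-treated db/db and 68.9, 79.7 and 68.4 CPM in puerarin-treated db/db libraries. The puerarin libraries lay at or below 79.7 CPM and overlapped both vehicle groups. Between vehicle-treated db/db and db/m the log2 difference was 0.29 (SE 0.249, edgeR adjusted p = 0.734), and puerarin against vehicle gave -0.35 (95% interval -0.96 to 0.26, adjusted p = 0.967), or -0.67 without puerarin 2 and 3 (adjusted p = 0.802).

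Cybb, the catalytic subunit of the phagocyte oxidase (chromosome X, 9435254 to 9469324, minus strand), was high in 1 library. It stood at 3.38, 4.18, 10.8 and 13.0 CPM in db/m, at 37.5, 10.4, 7.86 and 8.55 CPM in vehicle-treated db/db, and at 7.19, 7.97 and 6.92 CPM in puerarin-treated db/db libraries. Apart from 37.5 CPM in db/db vehicle 1, the db/db values lay within the range of the db/m libraries, whose S-number members were higher than their group-tag members. The log2 fold change between vehicle-treated db/db and db/m was 1.02 (SE 0.636, 95% interval -0.39 to 2.44, edgeR adjusted p = 0.633), and it was 0.26 without db/db vehicle 1 (adjusted p = 0.757). For puerarin against vehicle it was -1.13 (95% interval -2.55 to 0.30, adjusted p = 0.967), against -0.11 without db/db vehicle 1 and -1.21 without puerarin 2 and 3.

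The cytosolic subunits Ncf1 and Ncf4 and the leukocyte GTPase Rac2 peaked in the same library. Ncf1, the organizer that brings the cytosolic complex to the membrane, stood at 2.59, 2.46, 5.66 and 6.58 CPM in db/m, 19.95, 4.75, 3.83 and 4.38 CPM in vehicle-treated db/db and 5.35, 5.74 and 3.06 CPM in puerarin-treated db/db libraries. Ncf4, a subunit that binds membrane phosphoinositides, stood at 0.963, 0.746, 1.17 and 1.67 CPM, at 3.40, 2.15, 1.23 and 1.48 CPM, and at 0.736, 1.35 and 0.942 CPM. Rac2 stood at 1.31, 1.29, 3.12 and 2.91 CPM, at 8.95, 2.20, 1.91 and 1.79 CPM, and at 1.25, 2.83 and 1.45 CPM. Each of the 3 was highest in db/db vehicle 1, and in each the remaining db/db vehicle libraries overlapped db/m and puerarin. Counts were low, from 26 to 137 reads for Ncf4 and 44 to 360 for Rac2.

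The same library set most of the size of the differences of Ncf1 and Rac2, and part of those of Ncf4. Between vehicle-treated db/db and db/m, the edgeR log2 fold change of Ncf1 was 0.77 (SE 0.607, adjusted p = 0.708), that of Ncf4 0.81 (SE 0.379, adjusted p = 0.505) and that of Rac2 0.66 (SE 0.614, adjusted p = 0.758). Without db/db vehicle 1 they were 0.018, 0.51 and -0.12. For puerarin against vehicle they were -0.82, -1.03 and -1.01 (edgeR adjusted p = 0.967 for each), and 0.23, -0.65 and 0.020 without that library. Without puerarin 2 and 3 they were -1.27, -0.99 and -1.18. Ncf4 had the smallest unadjusted p of the members in both comparisons, 0.058 and 0.0304 (edgeR).

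Differences between vehicle-treated db/db and db/m went in opposite directions in the 2 title forms for these genes. The difference in mean log2 CPM for Cybb was -0.53 among S-number and 2.39 among group-tag libraries. Ncf1 gave -0.57 and 1.94, Rac2 -0.70 and 1.76, and Ncf4 -0.05 and 1.66. Nox4 gave 0.57 and 0.64, and Cyba 0.12 and 0.56. An interaction term in edgeR gave Cybb an unadjusted p of 0.0015 and an adjusted p of 0.848, and Ncf1, Rac2 and Ncf4 adjusted p-values of 1.0. Each form holds 2 libraries per vehicle group, and db/db vehicle 1 is a group-tag library.

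**Figure D3:**
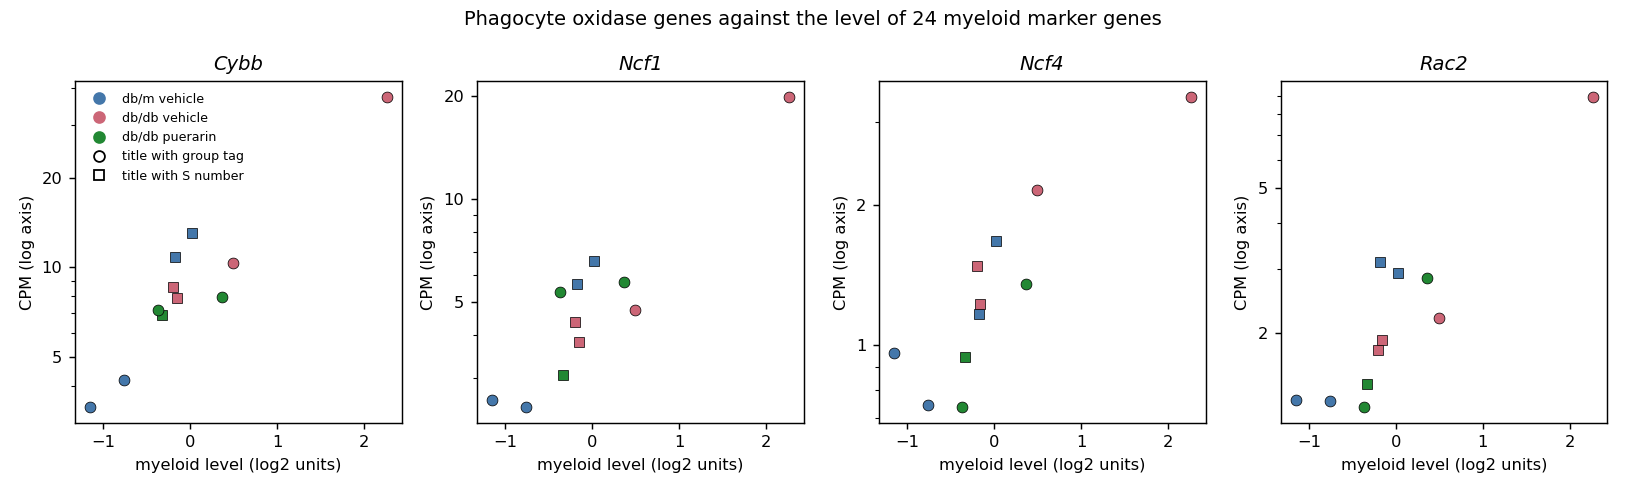
CPM (log axes) of Cybb, Ncf1, Ncf4 and Rac2 against the myeloid level, the mean log2 level of 24 marker genes relative to the mean of the 11 libraries; 1 point per library, coloured by group and shaped by title form. The point at the upper right of each panel is db/db vehicle 1, with a myeloid level of 2.26.

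Markers of myeloid cells moved with this set. In db/db vehicle 1 the pan-leukocyte gene Ptprc stood at 154 CPM, against 28.5 to 65.3 CPM in the other 10 libraries, the macrophage receptor gene Csf1r at 69.9 against 11.8 to 20.5, and the complement gene C1qa at 93.3 against 0.988 to 22.7. The neutrophil gene S100a8 ran from 0.864 to 8.25 CPM and was highest in the same library. The 4 measured neutrophil markers summed to 46.9 CPM there, against 8.50 to 32.2 CPM in the other 10 libraries. Over 11 libraries, r with the myeloid level was 0.934 for Cybb, 0.920 for Ncf1, 0.876 for Ncf4 and 0.908 for Rac2 (adjusted permutation p = 0.00294 for Cybb and Ncf4 and 0.00297 for Ncf1 and Rac2; rho = 0.836, 0.764, 0.864 and 0.836). Without db/db vehicle 1 and db/m 2, the libraries farthest from the median, r was 0.681, 0.636, 0.844 and 0.676 over 9 libraries, so the size of the relation rests in part on those libraries. For Nox4, Cyba and Rac1, r with the myeloid level was -0.227, 0.237 and 0.165 (adjusted permutation p of at least 0.801). Whether the number of myeloid cells sets the levels of these genes was not tested.

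With the myeloid level as a term, the log2 fold changes between vehicle-treated db/db and db/m were -0.30 for Cybb, -0.44 for Ncf1, 0.12 for Ncf4 and -0.67 for Rac2, none past the threshold in edgeR. The 6 genes most like Cybb over 11 libraries were Plbd1 (r = 0.980), Lcp1, Irf5, Selplg, Spi1 and Itgam (r = 0.957). Spi1 encodes PU.1, whose core motif was among the letters searched in the promoters above, Itgam the alpha chain of a leukocyte integrin, and both are on the myeloid list. Spi1 ran from 2.12 to 21.5 CPM.

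Rac1, the widely expressed Rac GTPase (chromosome 5, 143505481 to 143528031, minus strand), was the steadiest member. It stood at 409, 419, 405 and 465 CPM in db/m, 465, 371, 450 and 448 CPM in vehicle-treated db/db and 416, 394 and 483 CPM in puerarin-treated db/db libraries. The highest library was 1.30 times the lowest, against 8.02 times for Nox4 and 11.1 times for Cybb. Vehicle-treated db/db against db/m gave a log2 fold change of 0.03 (95% interval -0.17 to 0.23, edgeR adjusted p = 0.937), and puerarin against vehicle 0.011 (-0.20 to 0.23, adjusted p = 0.999), or 0.13 without puerarin 2 and 3. Rac1 tended to be lower where Slc34a1 was higher over the 11 libraries. Pearson r was -0.676 (permutation p = 0.0221, adjusted 0.0516), which did not pass the threshold, and Spearman rho was -0.736 (permutation p = 0.0126, adjusted 0.0302), which did. Without the 2 libraries farthest from the median r was -0.633, within the 6 group-tag libraries it was -0.905, and with group and title form removed it was -0.947. With Lrp2, neither measure passed: r was -0.544 (permutation p = 0.0822, adjusted 0.173) and rho -0.645 (permutation p = 0.0359, adjusted 0.0753). The same 3 subsets gave r of -0.430, -0.840 and -0.935 with Lrp2. The genes most like Rac1 were Uvrag (r = 0.963), Slco2a1, Rab31, B3galt1, Stat6 and Cyfip1, the last a subunit of the WAVE complex through which Rac acts on actin. Rac1 and Rac2 are close paralogs, and the sources used here do not give how reads shared by both were assigned.

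**Figure D4:**
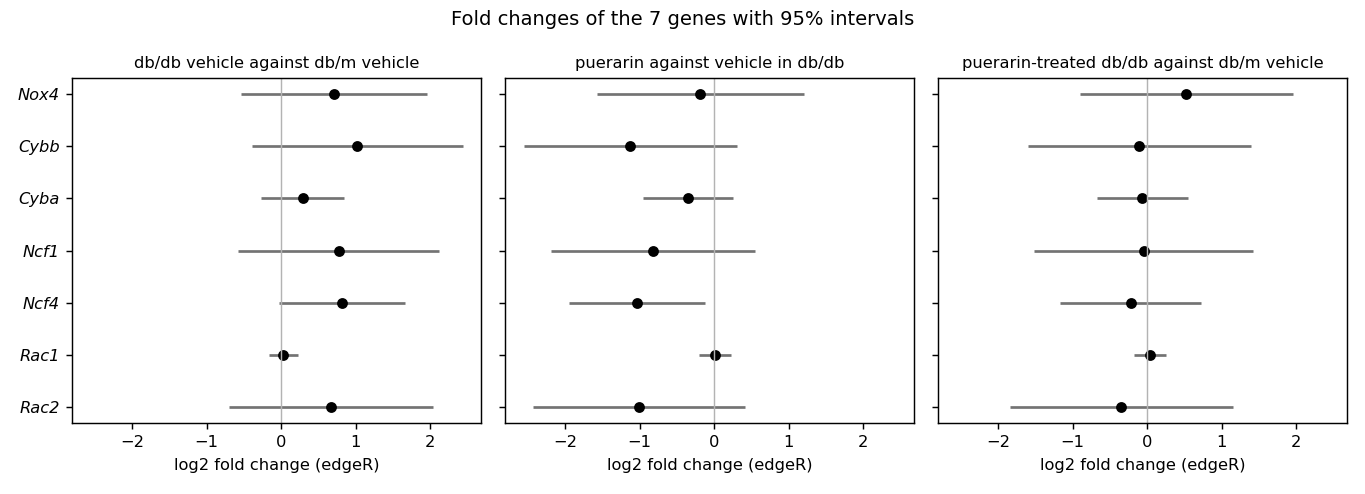
Log2 fold changes of the 7 genes (points) with 95% intervals (lines) from edgeR in the 3 comparisons, on a shared horizontal axis. The intervals are narrow for Rac1 and Cyba and wide for Nox4, Cybb, Ncf1 and Rac2, and the interval of Ncf4 under puerarin (-1.95 to -0.12) alone leaves out 0, before any adjustment over genes.

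Puerarin-treated db/db libraries were also set against db/m. Nox4 gave a log2 fold change of 0.53 (95% interval -0.90 to 1.95, edgeR adjusted p = 0.881), and -0.55 without puerarin 2 and 3, which leaves only S144. Leaving out single libraries kept it from 0.298 to 1.055. The difference in mean log2 CPM was -0.53 among S-number and 1.29 among group-tag libraries. Puerarin 2 and 3 are the group-tag libraries of their group, so title form and the Xist pattern of these libraries cannot be told apart here. The other 6 members lay between -0.35 (Rac2) and 0.04 (Rac1), with edgeR adjusted p-values from 0.941 to 0.993, and without puerarin 2 and 3 between -0.49 (Rac2) and 0.16 (Rac1). The puerarin values of Cybb, Cyba and Ncf1 fell inside the range of the db/m libraries, and those of Rac2 and Ncf4 overlapped it.

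Other oxidase genes were measured in part: 8 of 15 listed were in the table. They included the organizer Noxo1, the dual oxidase Duox1, Poldip2, BC017643, the proton channel gene Hvcn1 and the scaffold genes Sh3pxd2a and Sh3pxd2b, at log2 fold changes between vehicle-treated db/db and db/m from -0.30 (Sh3pxd2b) to 0.45 (Hvcn1). Of the 8, 4 were above 0 and 4 below in that comparison, with a median of -0.01, and 0 passed in edgeR. Under puerarin the split was 4 and 4 with a median of -0.02, and 0 passed. Without puerarin 2 and 3 it was 2 above and 6 below, with a median of -0.06 and 0 calls.

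Regulators of Rac and of the oxidase gave no calls either. Of 23 measured genes of the Rac cycle, 0 passed in edgeR in any comparison, with medians of -0.01, -0.01 and -0.05. At an unadjusted p under 0.05 there were 7, 1 and 4 of the 23, where 10.3%, 4.21% and 10.3% of all genes lay. Those with the smallest p between vehicle-treated db/db and db/m were the exchange factor gene Tiam1 at -1.05 (31.1 ± 9.75 against 65.3 ± 18.5 CPM, SD, n = 4 each; edgeR adjusted p = 0.182), the exchange factor gene Vav3 at 0.34 (adjusted p = 0.227) and the Rac effector kinase gene Pak1 at -0.51 (adjusted p = 0.232). Tiam1 stood at 29.4 ± 4.43 CPM in the puerarin libraries, a log2 fold change of -1.09 from db/m (edgeR adjusted p = 0.206), and without puerarin 2 and 3 at -1.56 (adjusted p = 0.63). Without these libraries the medians of the Rac cycle were 0.09 for puerarin against vehicle and 0.07 for puerarin against db/m, with 0 calls in edgeR and 1 gene at an unadjusted p under 0.05 in each. Of 10 kinase and adaptor genes that act on the oxidase, 0 passed in edgeR. Between vehicle-treated db/db and db/m 6 lay above 0 (median 0.11), and 9 lay below 0 under puerarin (median -0.28). Over all genes 53.5% and 44.7% were above 0 in these comparisons. Prkcd, a protein kinase C that phosphorylates Ncf1, was at 0.21 and -0.23 (edgeR adjusted p = 0.462 and 0.967). Without puerarin 2 and 3, 6 of the 10 lay below 0 under puerarin (median -0.23), with Prkcd at -0.36 (edgeR adjusted p = 0.802).

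Enzymes that remove superoxide and peroxide were measured in full, 17 of 17. Between vehicle-treated db/db and db/m 16 lay above 0 with a median log2 fold change of 0.17, and under puerarin 14 lay below 0 with a median of -0.15. Over all genes 53.5% and 44.7% were above 0 in these comparisons. Without puerarin 2 and 3, 16 lay below 0 under puerarin with a median of -0.28. In edgeR 0 passed in any comparison (0, 0 and 1 at an unadjusted p under 0.05, where 10.3%, 4.21% and 10.3% of all genes lay). Proximal tubule markers moved with these counts: 19 of 27 lay above 0 in the first comparison and 26 of 27 below 0 under puerarin, none called in edgeR (3 and 3 at an unadjusted p under 0.05). Without puerarin 2 and 3, 27 of 27 lay below 0 under puerarin, with a median log2 fold change of -1.28 against -0.39 with them. The mean centred log2 level of the enzymes was highest in db/m S184 and db/db vehicle 3 (0.34 in each), the libraries with the highest proximal tubule level (1.39 and 1.02). The part of these cells in the counts was not tested. The peroxiredoxin gene Prdx2 stood at 202 ± 28.5 CPM in vehicle-treated db/db against 169 ± 24.7 in db/m (SD, n = 4 each; log2 fold change 0.26, edgeR adjusted p = 0.512) and Prdx1 at 227 ± 24.7 against 193 ± 40.7 (0.24, edgeR adjusted p = 0.624). The secreted peroxidase gene Gpx3, made largely by the proximal tubule, stood at 11852 ± 5780 against 7236 ± 5016 CPM (0.73, edgeR adjusted p = 0.674). Its spread, like that of Nox4, was as large as the difference between the groups.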

How the data were processed

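RNA of isolated glomeruli was sequenced in 11 libraries. BWA, limma and build mm10 were used, per the submitters' processing notes; the sources used here do not give the counting method. Among the files, the authors' deposited counts were whole reads for each of 22320 RefSeq transcripts. Their deposited log2 values were the log2 of those counts plus a constant per library and were not tested. Of the table's columns, 8 matched no sample and were not used, and 13 blank cells were taken as 0. Starts listed from 0 were raised by 1.

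Counts were summed per symbol (13734 genes), so reads shared by transcripts count repeatedly. edgeR 4.0.16 (TMM; R 4.3.3) was fitted to all libraries with group and title form; a gene needed a count of 1 in 3 libraries, which removed none. P-values are two-sided, adjusted by Benjamini-Hochberg, with a threshold of 0.05. Correlations used log2 CPM (prior count 0.5) and 100000 permutations. Genes named beyond the members were the 6 most alike by r for Nox4, Cybb and Rac1, the measured oxidase genes, and the 3 with the smallest p per regulator list, of which some are shown and some are not reported here. The members and lists were chosen with earlier results of these data known. The fit was tested on simulated data. Alternatives were DESeq2 1.42.0, other filters and scalings, other terms, the highest transcript per gene and leaving out libraries.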

Additional observations from a re-analysis of the deposited data

Results flagged for a closer look

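Nox4 in db/m S184, at 248.9 CPM, stood far above the other 3 db/m libraries, and Nox4 in db/db vehicle 1, at 31.04 CPM, far below the other 3 of its group. In db/db vehicle 1, Cybb at 37.47 CPM, Ncf1 at 19.95 CPM and Rac2 at 8.945 CPM stood far above the other 3 libraries of that group. In all, 18 groups were checked for an outlying library. The rule marks about 5% of groups by chance where values are normally spread, which was not checked for these CPM. The groups share libraries, and every flag but that of Nox4 in db/m S184 fell in db/db vehicle 1. The flags are therefore not separate observations, and their number cannot be set against that rate.

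The difference between db/db and db/m had opposite signs in the 2 title forms for 3 genes, with no overlap of the libraries compared within a form. The share of all genes with this pattern was not counted. The 3 genes are not separate observations. Over 11 libraries r was 0.95 for Cybb with Ncf1 and 0.92 for Rac2 with each, and db/db vehicle 1 is a group-tag library. For vehicle-treated db/db against db/m, the log2 difference among group-tag libraries minus that among S-number libraries was 2.92 for Cybb, 2.52 for Ncf1 and 2.46 for Rac2. With puerarin-treated db/db in place of vehicle-treated db/db it was 1.79 for Cybb and 2.12 for Ncf1, which rest on a single S-number puerarin library and were not tested. In the vehicle comparison an interaction term in edgeR gave adjusted p-values of 0.848 for Cybb and 1.0 for Ncf1 and Rac2. Of the 13734 genes, 3 had an adjusted p under 0.05 for that term.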

How the results depend on the processing

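The count of members past the threshold stayed at 0 under each alternative in the first 2 comparisons. Between puerarin-treated db/db and db/m it was 1 (Nox4) with the proximal tubule level as a term, and 0 to 1 when a library was also left out, alternatives added after the data were seen. Counts over all genes moved more. DESeq2 called 290, 15 and 297 genes, in the order of the comparisons above, where edgeR called 6, 0 and 25. Without the title form, edgeR called 1 gene between vehicle-treated db/db and db/m and 5 between puerarin-treated db/db and db/m, and with only the 2 groups compared 2 and 5. The proximal tubule level gave 241 and 363 there, the myeloid level 53 and 54, and leaving out puerarin 2 and 3 gave 2 and 0. Leaving out 1 library at a time gave 0 to 82, 0 to 5 and 0 to 74. The cause of these shifts was not tested.

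Fold changes that changed sign were all of members that did not pass in the edgeR fit with group and title form. Among them was Nox4 between puerarin-treated db/db and db/m, which passed only with the proximal tubule level as a term. With the myeloid level as a term, vehicle-treated db/db against db/m gave -0.30 for Cybb, -0.44 for Ncf1, -0.028 for Rac1 and -0.67 for Rac2, and puerarin against vehicle 0.085 for Cybb, 0.30 for Ncf1 and 0.088 for Rac2. With the proximal tubule level, puerarin against vehicle gave 0.42 for Nox4 (from 0.16 to 0.62 without single libraries: 0.50 without db/m 2, 0.45 without db/m S184, 0.43 without db/m S185 or db/db vehicle S153, 0.32 without db/db vehicle 3, 0.59 without S152, 0.38 without puerarin 2; and 0.015 without puerarin 2 and 3) and -0.036 for Rac1, and puerarin-treated db/db against db/m gave 0.092 for Cyba. Without the title form, Rac1 was at -0.0076 under puerarin, as by exact permutation of log2 CPM, and Ncf1 at 0.12 between puerarin-treated db/db and db/m. There, the 2 groups alone gave 0.33 for Cybb and 0.35 for Ncf1, exact permutation 0.14 and 0.21, and Nox4 was at -0.55 without puerarin 2 and 3. Leaving out 1 library moved Rac1 from -0.035 to 0.087 and Rac2 from -0.12 to 1.0 between vehicle-treated db/db and db/m. Under puerarin against vehicle it moved Nox4 from -0.59 to 0.65, Ncf1 from -1.04 to 0.23, Rac1 from -0.053 to 0.093 and Rac2 from -1.41 to 0.020. Ranges between puerarin-treated db/db and db/m were -0.52 to 0.21 for Cybb, -0.26 to 0.17 for Cyba, -0.46 to 0.25 for Ncf1, -0.46 to 0.052 for Ncf4 and -0.023 to 0.094 for Rac1. The relations of Nox4 with Lrp2 and Slc34a1 kept their sign and stayed past the threshold, at r from 0.868 to 0.946 and from 0.794 to 0.903 without single libraries.

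Libraries of different groups share the numbers 2 and 3, but deviations of same-numbered libraries correlated at -0.17, -0.22, -0.17 and 0.26, so the numbers were not taken as pairs. With a replicate block the counts were 56 and 49 genes for vehicle-treated and puerarin-treated db/db against db/m, and 0 members. In that block db/db vehicle 1 is the only library of its number, so the block takes it out of the contrasts. The setting thus largely repeats leaving out db/db vehicle 1 and is not a separate check. Under that block, vehicle-treated db/db against db/m gave -0.027 for Ncf1, -0.032 for Rac1 and -0.29 for Rac2, puerarin against vehicle 0.022 for Cybb, 0.28 for Ncf1 and 0.15 for Rac2, and puerarin-treated db/db against db/m 0.18 for Cybb and 0.25 for Ncf1. Low counts limit Ncf4 and Rac2 most.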
